A study of Homo sapiens with 8 samples.

Results

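The human genes of the ATP-binding cassette (ABC) family were taken from the count file by their symbols, as every gene named ABC with a subfamily letter from A to G and a number. The rule itself used no measured value, but the members were chosen with earlier results of these data known. The rule found 46 genes among 26364, and 35 of them passed the filter on low counts, beside 14201 genes tested in all. They were sorted by general knowledge of their roles into 10 drug efflux transporters, 18 lipid and sterol transporters, 9 transporters of organelle membranes, 4 ATPases of the family that transport nothing, and 5 channel regulators and others.

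The cells were LN229, a human glioblastoma line, carrying a plasmid for Survivin (BIRC5) fused to eGFP and kept in G418. In Surv-GFP (clone D6) the nuclear export sequence (NES) of Survivin works and the labels place the protein mainly in the cytoplasm. SurvNESmut-GFP (clone L2) carries the changes L96A and L98A in this sequence, and the protein lies mainly in the nucleus. RNA of each clone was sequenced untreated and after 48 h with 50 µM temozolomide (TMZ), an alkylating drug of glioma therapy, with 2 libraries (replicates a and b) in each of the 4 groups. Each form of Survivin was represented by 1 clone, so clone and transgene cannot be told apart. TMZ had been dissolved in DMSO and the other cells are labelled untreated, so the drug and its solvent cannot be told apart either. The study describes the transcriptome data as coming from independent biological replicates with technical duplicates, and which of these the letters mark is not given, so p-values measure the spread between letters, which may be technical.

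ABC proteins share a nucleotide-binding domain that hydrolyses ATP, and most couple this to the movement of a substrate across a membrane. Members of the B, C and G subfamilies such as ABCB1, ABCC1 and ABCG2 pump drugs out of cells and are known from the blood-brain barrier and from drug-resistant tumours. Most A-subfamily proteins move lipids, several B- and D-subfamily proteins sit in mitochondria, lysosomes or peroxisomes, and the E and F subfamilies lack membrane domains and work on ribosomes.

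The libraries held 15826923 to 18861603 gene counts each, of which the 46 ABC genes made up 24874 to 27900. The exposed SurvNESmut-GFP pair differed more than the other pairs, with a chi-square of 5.49 per degree of freedom across genes against 2.14 to 2.58, and its replicate a had the highest share of reads on no gene (14.3%). The p53 target CDKN1A rose in both clones (edgeR adjusted p = 1e-15 and 4.2e-12): it lay between 77.3 and 119 CPM (counts scaled to a common library size by the TMM method) in the 4 untreated libraries and between 429 and 975 CPM after TMZ. The rise of CDKN1A was smaller in SurvNESmut-GFP (log2 1.96) than in Surv-GFP (log2 3.52), and the difference of -1.56 passed the test. BIRC5 reads, in which the plasmid and the cell's own gene cannot be told apart, moved with TMZ in opposite directions. They rose from 1113 and 1152 CPM to 1938 and 2029 CPM in Surv-GFP (edgeR adjusted p = 2.1e-10) and fell from 407 and 414 CPM to 253 and 262 CPM in SurvNESmut-GFP (edgeR adjusted p = 1.3e-08). The clone difference in BIRC5 was thus -1.46 in log2 without TMZ and -2.95 with it. Of the glial markers VIM, NES and CD44 were at 524 CPM or more in every library, whereas GFAP, SOX9 and AQP4 did not pass the filter and ALDH1L1 had 0 counts. Microglial and leukocyte markers summed to at most 0.868 CPM, with AIF1, TYROBP and CX3CR1 at 0. Endothelial and pericyte markers summed to 10.3 to 20.3 CPM, mostly PDGFRB, and CLDN5 was at 0.

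To show where in the family the RNA lay, levels were divided by exon length (CPM per kb of exon). In untreated Surv-GFP the 4 highest levels belonged to ABCF2 (41.9 CPM per kb), ABCF1 (37.8), ABCE1 (33.9) and the peroxisomal ABCD3 (32.4). ABCF2 shares 1914 of its 3546 exon bases with AC021097.2 on the same strand in GENCODE v29. The count file has no gene of that name, so its reads may be counted under ABCF2, whose level and rank are uncertain. The exons of ABCE1 overlap AC098588.1 and ANAPC10 on the other strand, by at most 278 of its 3921 bases each. Without strand the reads there cannot be told apart. The highest lipid transporter was ABCA2 at 15.3 CPM per kb and the highest drug efflux transporter was ABCC1, a glutathione-conjugate pump, at 9.25 CPM per kb. ABCB1 and ABCG2, the pumps best known from the blood-brain barrier, stood at 1.13 and 0.546 CPM per kb. In untreated SurvNESmut-GFP the first drug pump was instead ABCC3, an exporter of organic anions, at 13.7 CPM per kb against 1.73 in untreated Surv-GFP. For 11 members reads were too few for a test. ABCG5, ABCG8 and ABCC13 had 0 counts in all 8 libraries, which allows up to 3 counts in each, and ABCA4, ABCB5 and ABCC9 had at most 1 count in a library.

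**Figure D1:**
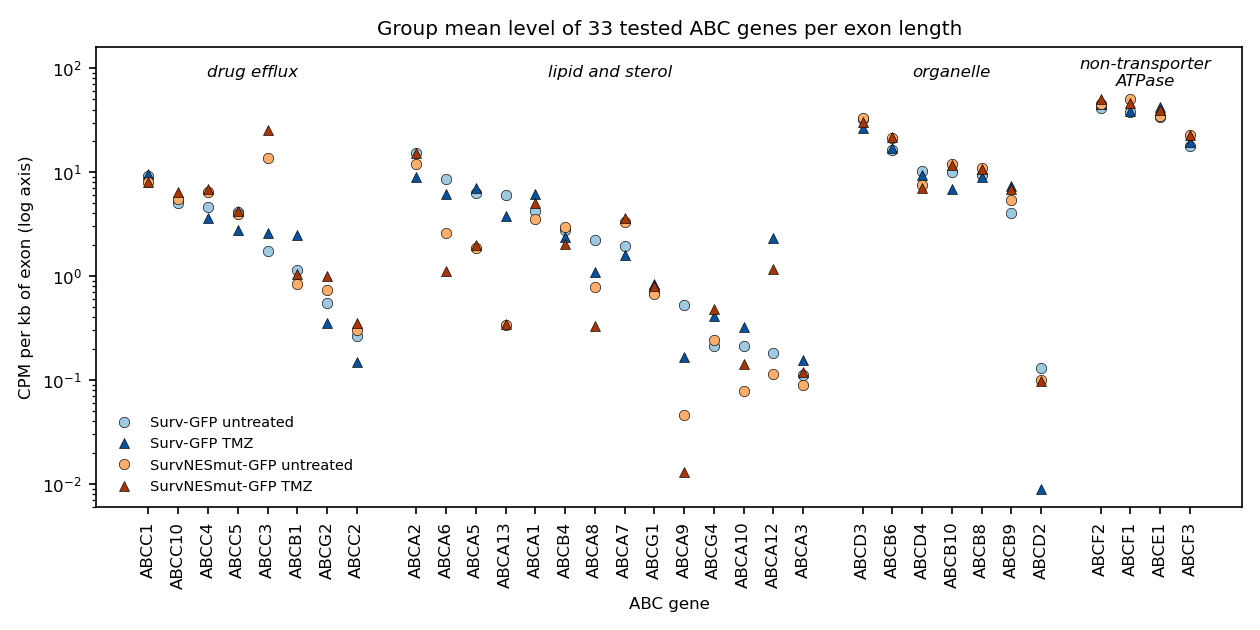
Group mean levels (CPM per kb of exon, log axis) of 33 of the 35 tested ABC genes, ordered within each role by their level in untreated Surv-GFP, with circles for untreated and triangles for TMZ-exposed groups of 2 libraries each. The ribosome-associated ABCF2, ABCF1 and ABCE1 and the peroxisomal ABCD3 lie at the top, and the groups of ABCC3, ABCA13, ABCA9 and ABCA12 lie far apart.

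Promoter windows are given for 4 lipid transporters on which the results turn: ABCA12 and ABCA1, which rose in both clones after TMZ, and ABCA6 and ABCA9, neighbours on chromosome 17 that were lower in SurvNESmut-GFP. Each window runs from 250 bases before the start of the gene to 50 bases after it, from RefSeq on GRCh38.p14, written 5′ to 3′ on the strand of the gene. Capitals mark matches, on either strand, to the p53 half-site, to CACGTG, to TATAAA or to CCAAT (as ATTGG where it lies on the other strand).
ABCA12 (chr2:215138577-215138876, minus strand): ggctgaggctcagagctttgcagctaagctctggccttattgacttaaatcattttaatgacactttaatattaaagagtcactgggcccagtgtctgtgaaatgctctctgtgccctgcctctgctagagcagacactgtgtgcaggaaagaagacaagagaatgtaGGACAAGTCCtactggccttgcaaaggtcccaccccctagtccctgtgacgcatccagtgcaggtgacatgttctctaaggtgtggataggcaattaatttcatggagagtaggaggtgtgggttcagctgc
ABCA1 (chr9:104928106-104928405, minus strand): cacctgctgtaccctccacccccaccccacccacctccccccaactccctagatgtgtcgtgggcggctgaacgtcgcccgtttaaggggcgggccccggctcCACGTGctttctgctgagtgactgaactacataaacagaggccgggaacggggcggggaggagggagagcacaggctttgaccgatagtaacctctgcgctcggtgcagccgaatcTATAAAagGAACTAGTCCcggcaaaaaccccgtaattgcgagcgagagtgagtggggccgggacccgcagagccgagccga
ABCA6 (chr17:69141846-69142145, minus strand): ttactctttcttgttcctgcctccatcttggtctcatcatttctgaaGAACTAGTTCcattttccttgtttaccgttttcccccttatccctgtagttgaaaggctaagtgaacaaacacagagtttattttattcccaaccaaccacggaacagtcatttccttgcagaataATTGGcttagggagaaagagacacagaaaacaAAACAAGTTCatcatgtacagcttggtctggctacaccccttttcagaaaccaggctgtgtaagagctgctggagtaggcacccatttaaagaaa
ABCA9 (chr17:69060878-69061177, minus strand): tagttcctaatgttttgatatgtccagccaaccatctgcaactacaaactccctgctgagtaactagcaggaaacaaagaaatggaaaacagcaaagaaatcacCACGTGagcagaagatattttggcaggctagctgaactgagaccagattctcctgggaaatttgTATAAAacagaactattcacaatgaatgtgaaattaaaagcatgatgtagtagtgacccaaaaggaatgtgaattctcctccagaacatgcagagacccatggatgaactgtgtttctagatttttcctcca
The ABCA12 window holds 1 p53 half-site, whose first base lies 82 bases before the start. The ABCA1 window holds a match to CACGTG 147 bases before the start, one to TATAAA at 31 bases and a p53 half-site at 23 bases. Of 35116 human promoter windows of this length 6.63% hold a p53 half-site, and 7 of the 35 ABC genes with an entry there do: ABCG4, ABCC11, ABCA6, ABCA7, ABCA12, ABCC5 and ABCA1. After TMZ in Surv-GFP the RNA of ABCA12, ABCA1 and ABCG4 was higher and that of ABCA6, ABCA7 and ABCC5 was lower, while ABCC11 had too few reads. In SurvNESmut-GFP ABCA12, ABCA1 and ABCG4 were higher and ABCA6 was lower, and ABCA7 and ABCC5 did not pass the test. The calls of ABCG4, ABCA6 and ABCA7 in Surv-GFP were lost under some other fits, as given below. CACGTG stood in 4 of the 35 windows (7.26% of all), TATAAA in 5 (11.53% of all) and CCAAT in 6 (34.61% of all). A match is only a run of letters and no measurement of binding.

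The first comparison asked what TMZ did to the family in each clone. In Surv-GFP 9 of the 35 tested members rose and 13 fell (edgeR quasi-likelihood test, Benjamini-Hochberg adjusted p under 0.05), against 30.1% of all tested genes higher and 28.9% lower. In SurvNESmut-GFP 9 rose and 4 fell, against 18.6% and 19.1% of all genes. The median size of the log2 fold change was 0.46 for the members and 0.32 for all genes in Surv-GFP, and 0.21 and 0.20 in SurvNESmut-GFP. Both effects had the same direction in 10 members, 7 higher and 3 lower. ABCA2 passed in opposite directions, 11 members passed in Surv-GFP alone, 2 in SurvNESmut-GFP alone and 11 in neither. This overlap was not counted over all genes, which also passed more often in Surv-GFP, so it describes the members and is no trait of the family. The test of the difference between the effects, which alone shows that the clones differ, called 12 members. In 9 of them the log2 effect was larger, that is more positive, in SurvNESmut-GFP, and in 3 it was smaller, against 16.6% and 20.2% of all genes. DESeq2 called 5 and 2, and without SurvNESmut-GFP TMZ replicate b edgeR called 8 and 5. Without SurvNESmut-GFP TMZ replicate a or b the members that rose and fell in that clone were 6 and 3, or 8 and 5. Of the 6 tested glial markers 5 fell with TMZ in Surv-GFP, where the summed level of the list went from 5921 and 5984 CPM to 3811 and 3894 CPM. In SurvNESmut-GFP 1 rose and 4 fell, and the sum went from 4612 and 4799 CPM to 4052 and 4168 CPM. The part of these markers, and of the BIRC5 and CDKN1A changes given above, in the ABC effects was not tested.

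**Figure D2:**
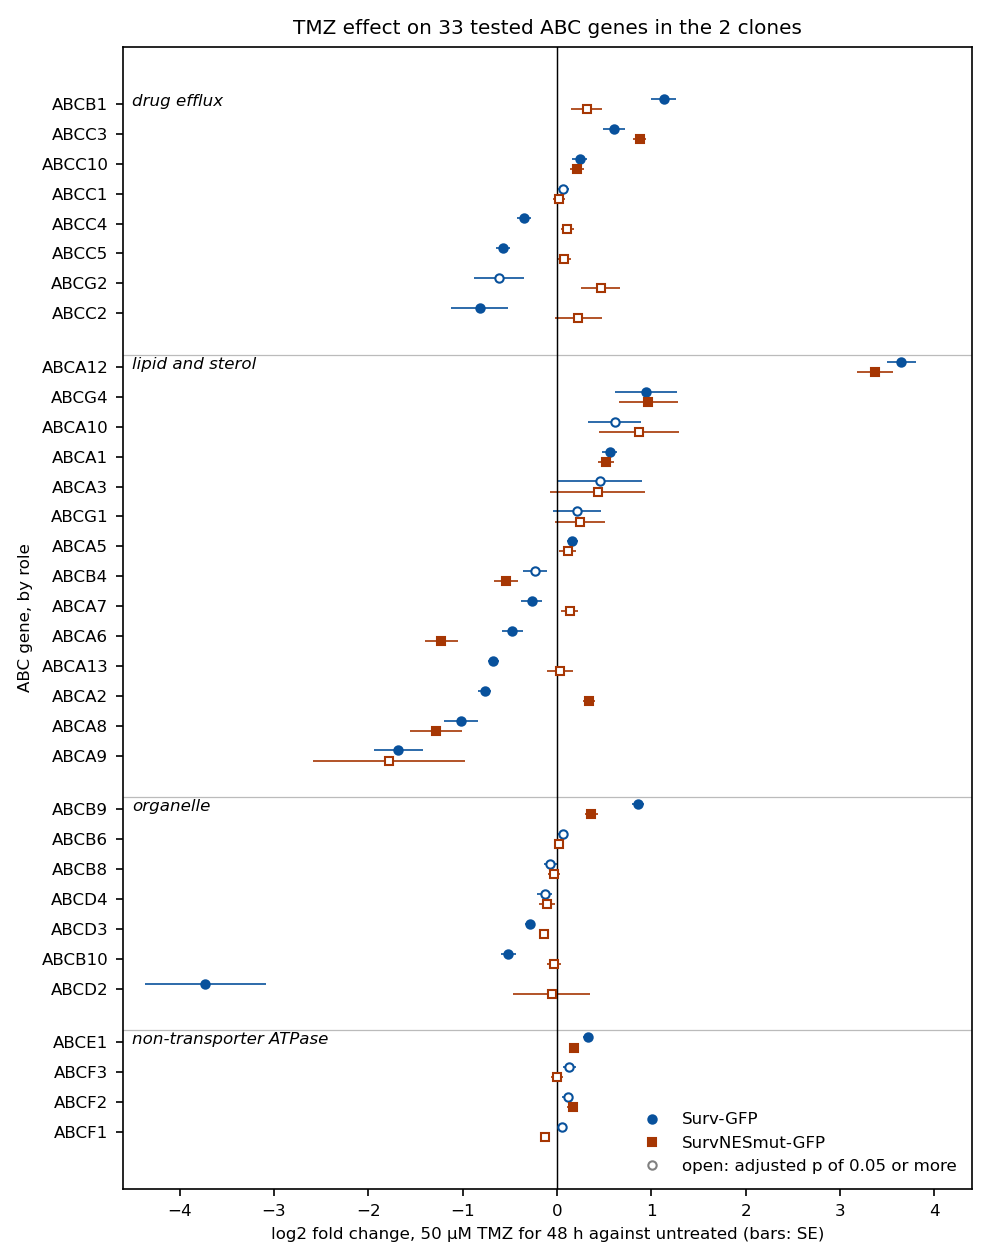
Log2 fold change after 50 µM TMZ for 48 h with its SE for 33 of the 35 tested ABC genes, by role, in Surv-GFP (blue circles) and SurvNESmut-GFP (brown squares), with filled symbols for an adjusted p under 0.05. ABCA12 stands far to the right in both clones, and ABCA2 lies on opposite sides of 0.

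Among the 8 tested drug efflux transporters 3 rose and 3 fell in Surv-GFP (30.1% and 28.9% of all genes), and 2 rose and none fell in SurvNESmut-GFP (18.6% and 19.1%). ABCB1 encodes P-glycoprotein, the broad multidrug pump. Its level was 5.31 and 5.91 CPM in untreated Surv-GFP, 12.5 and 12.1 CPM after TMZ, 4.12 and 4.22 CPM in untreated SurvNESmut-GFP and 4.62 and 5.80 CPM after TMZ. Only the TMZ-exposed Surv-GFP libraries stood apart, both above the highest of the other 6. The rise in Surv-GFP was 2.2-fold (log2 1.13 ± 0.13 SE, n = 2 against 2, edgeR adjusted p = 1.6e-06), the log2 change in SurvNESmut-GFP was 0.31 ± 0.17 (edgeR adjusted p = 0.15), and the 2 effects differed by -0.82 ± 0.21 (edgeR adjusted p = 0.0067).

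ABCG2, the breast cancer resistance protein, was measured at low counts. The libraries held 2.49 and 2.76 CPM in untreated Surv-GFP, 2.09 and 1.32 CPM after TMZ, 4.07 and 2.94 CPM in untreated SurvNESmut-GFP and 5.03 and 4.66 CPM after TMZ. Both exposed SurvNESmut-GFP libraries lay above all others and both exposed Surv-GFP libraries below. Neither effect passed the test on its own (log2 -0.61 and 0.47, edgeR adjusted p = 0.056 and 0.087), whereas their difference of 1.08 ± 0.33 did (edgeR adjusted p = 0.018). DESeq2 gave an adjusted p of 0.060 for that difference, and it was lost without Surv-GFP TMZ replicate b (log2 0.83, adjusted p = 0.087), without Surv-GFP untreated replicate b (0.999, 0.072) or without SurvNESmut-GFP untreated replicate b (0.86, 0.080). The decrease in Surv-GFP passed under 9 of the 17 alternatives, among them leaving out Surv-GFP TMZ replicate a (log2 -0.99, adjusted p = 0.024).

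The C-subfamily exporters ABCC4, which carries cyclic nucleotides and prostaglandins, and ABCC5, which carries nucleotide analogues, fell in Surv-GFP and not in SurvNESmut-GFP. ABCC5 went from 44.1 and 43.1 CPM to 27.5 and 31.1 CPM in Surv-GFP, and from 42.6 and 41.4 CPM to 45.8 and 43.0 CPM in SurvNESmut-GFP. The exposed Surv-GFP libraries were thus below the other 6, which covered a narrow range. The log2 changes were -0.57 ± 0.07 and 0.08 ± 0.07, and differed by 0.65 ± 0.10 (edgeR adjusted p = 8.9e-05). ABCC4 fell by 0.35 on the log2 scale in Surv-GFP (edgeR adjusted p = 0.00084), and its effects differed by 0.46 (edgeR adjusted p = 0.0021).

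ABCC3 and ABCC10 were the drug pumps that rose in both clones. ABCC3 went from 10.5 and 11.7 CPM to 17.7 and 15.9 CPM in Surv-GFP and from 84.4 and 91.9 CPM to 173 and 150 CPM in SurvNESmut-GFP. No libraries of different groups overlapped, and the gap between the clones was wider than that between exposures. The rises were 1.52-fold and 1.84-fold (edgeR adjusted p = 0.00029 and 4.5e-08). Their difference of 0.27 ± 0.14 in log2 did not pass (edgeR adjusted p = 0.13), but did without SurvNESmut-GFP TMZ replicate b (0.37, adjusted p = 0.013). ABCC10, an exporter of taxanes, rose by 0.24 and 0.21 in log2 (edgeR adjusted p = 0.014 and 0.040). The rise in Surv-GFP was lost without Surv-GFP TMZ replicate a (adjusted p = 0.10) or untreated replicate a (0.11), and that in SurvNESmut-GFP without any 1 of 6 libraries (0.050 to 0.33) and in a fit to the 4 SurvNESmut-GFP libraries (0.071). DESeq2 called neither (0.092 and 0.16).

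ABCC1 passed in neither clone: 62.3 and 59.7 CPM became 62.4 and 65.1 CPM in Surv-GFP, and 55.4 and 50.3 CPM became 54.0 and 53.1 CPM in SurvNESmut-GFP. The log2 changes were 0.06 ± 0.06 and 0.02 ± 0.06 (edgeR adjusted p = 0.38 and 0.84). ABCC2, an exporter of conjugates into bile, lay at 1.52 and 1.71 CPM, and at 1.07 and 0.746 CPM after TMZ, in Surv-GFP. In SurvNESmut-GFP it lay at 1.68 and 2.06 CPM, and at 2.10 and 2.27 CPM after TMZ. These are 13 to 37 counts a library. The decrease in Surv-GFP (log2 -0.82 ± 0.30, edgeR adjusted p = 0.029) was lost without Surv-GFP TMZ replicate b (-0.62, adjusted p = 0.17) or either untreated Surv-GFP library (0.058 and 0.13). The difference of 1.04 ± 0.39 (edgeR adjusted p = 0.047) was lost in 7 of the 8 fits that left out a library (adjusted p 0.060 to 0.16) and with a replicate block (0.062). DESeq2 called neither (adjusted p = 0.12 and 0.19).

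**Figure D3:**
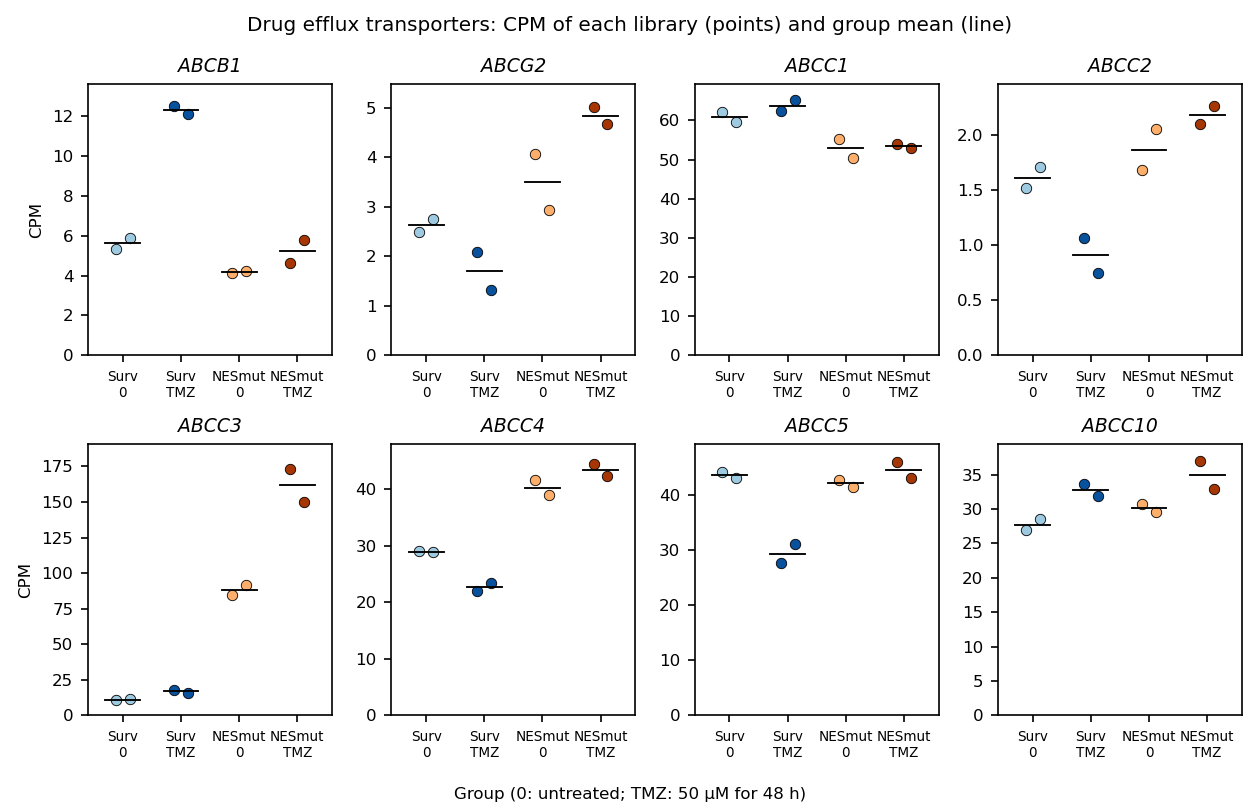
CPM of each library (points) and group mean (line) for the 8 tested drug efflux transporters, each on its own axis from 0, by clone without (0) and with 50 µM TMZ. The exposed Surv-GFP group is the highest for ABCB1 and the lowest for ABCG2, ABCC2, ABCC4 and ABCC5, and ABCC3 is far higher in SurvNESmut-GFP.

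Among the 14 tested lipid and sterol transporters 4 rose and 6 fell in Surv-GFP (30.1% and 28.9% of all genes), and 4 rose and 3 fell in SurvNESmut-GFP (18.6% and 19.1%). The share that rose in Surv-GFP was thus near that of all genes. The gene with the largest positive fold in the family was ABCA12, which carries lipids into the lamellar granules of skin cells. It lay at 1.46 and 1.99 CPM in untreated Surv-GFP and at 22.0 and 21.5 CPM after TMZ. In SurvNESmut-GFP it lay at 1.25 and 0.889 CPM and at 11.1 and 11.2 CPM after TMZ. All 4 exposed libraries were thus far above all 4 untreated ones, and the exposed Surv-GFP libraries were the highest. The rises were 12.6-fold and 10.3-fold (log2 3.65 ± 0.15 and 3.37 ± 0.19, edgeR adjusted p = 5e-12 and 1.1e-09). The difference between them was -0.28 ± 0.31 in log2 (edgeR adjusted p = 0.51).

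ABCA1, which loads cholesterol onto apolipoprotein A-I, rose from 49.3 and 44.9 CPM to 69.0 and 69.7 CPM in Surv-GFP and from 40.8 and 38.6 CPM to 62.3 and 51.2 CPM in SurvNESmut-GFP. In both clones the exposed libraries lay above the untreated ones. The folds were 1.47 and 1.43 (edgeR adjusted p = 1.1e-05 and 1.0e-04), and the effects differed by -0.04 ± 0.11 in log2 (edgeR adjusted p = 0.82). Its partner ABCG1, which passes cholesterol to HDL, had 3.96 and 2.65 CPM, then 4.38 and 3.27 CPM in Surv-GFP, and 3.96 and 2.22 CPM, then 3.57 and 3.78 CPM in SurvNESmut-GFP. Its replicates overlapped between all groups (log2 changes 0.22 ± 0.25 and 0.24 ± 0.26, edgeR adjusted p = 0.49 and 0.50). ABCG4, a sterol exporter of brain cells, held 0.759 and 0.993 CPM, then 1.76 and 1.61 CPM in Surv-GFP, and 0.705 and 1.28 CPM, then 1.75 and 2.14 CPM in SurvNESmut-GFP. Its calls (log2 0.94 and 0.97, edgeR adjusted p = 0.020 and 0.023) rested on 13 to 34 counts a library. The call in Surv-GFP was lost without Surv-GFP untreated replicate a (adjusted p = 0.14), TMZ replicate a (0.10) or TMZ replicate b (0.054). That in SurvNESmut-GFP was lost without untreated replicate a (0.23) or TMZ replicate b (0.097), and both were lost with DESeq2 (0.11 and 0.12).

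ABCA2, a lysosomal and endosomal lipid transporter abundant in oligodendrocytes, was the member that moved in opposite directions. It went from 131 and 125 CPM to 71.1 and 79.4 CPM in Surv-GFP and from 107 and 95.2 CPM to 129 and 127 CPM in SurvNESmut-GFP. The 2 exposed Surv-GFP libraries were the lowest of all 8. It fell 1.70-fold in Surv-GFP (edgeR adjusted p = 2.8e-08) and rose 1.27-fold in SurvNESmut-GFP (edgeR adjusted p = 0.00043), and the effects differed by 1.11 ± 0.09 in log2 (edgeR adjusted p = 1.1e-07). All 3 calls were kept under every alternative run.

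ABCA13, the longest protein of the family, went from 103 and 104 CPM to 63.8 and 66.1 CPM in Surv-GFP. In SurvNESmut-GFP it stood at 5.26 and 6.45 CPM untreated and at 5.67 and 6.30 CPM after TMZ. It fell 1.60-fold in Surv-GFP (edgeR adjusted p = 5.2e-08), had a log2 change of 0.03 ± 0.13 in SurvNESmut-GFP (edgeR adjusted p = 0.88), and the effects differed by 0.71 ± 0.15 (edgeR adjusted p = 0.0013). ABCA7, a phospholipid transporter linked to the clearance of amyloid, had 13.4 and 13.5 CPM, then 10.6 and 11.8 CPM in Surv-GFP, and 24.1 and 21.8 CPM, then 24.1 and 26.3 CPM in SurvNESmut-GFP. Its decrease in Surv-GFP (log2 -0.27, edgeR adjusted p = 0.040) was lost without Surv-GFP TMZ replicate a (0.25) or untreated replicate a (0.11) or b (0.13), and with DESeq2 (0.094). Its difference (0.40, edgeR adjusted p = 0.031) was lost without Surv-GFP TMZ replicate a (0.14), untreated replicate a (0.076) or b (0.087), and without SurvNESmut-GFP TMZ replicate b (0.069) or untreated replicate b (0.12), and with DESeq2 (0.099). ABCB4, which moves phosphatidylcholine into bile, had 13.1 and 11.5 CPM, then 10.2 and 10.7 CPM in Surv-GFP, and 13.2 and 12.9 CPM, then 7.89 and 10.2 CPM in SurvNESmut-GFP. It fell in SurvNESmut-GFP (log2 -0.54 ± 0.13, edgeR adjusted p = 0.0035), a call lost without SurvNESmut-GFP TMZ replicate a (-0.36, adjusted p = 0.056). In Surv-GFP its log2 change was -0.23 ± 0.12 (edgeR adjusted p = 0.12), and that of ABCB1, which lies beside it on chromosome 7, was 1.13 ± 0.13.

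**Figure D4:**
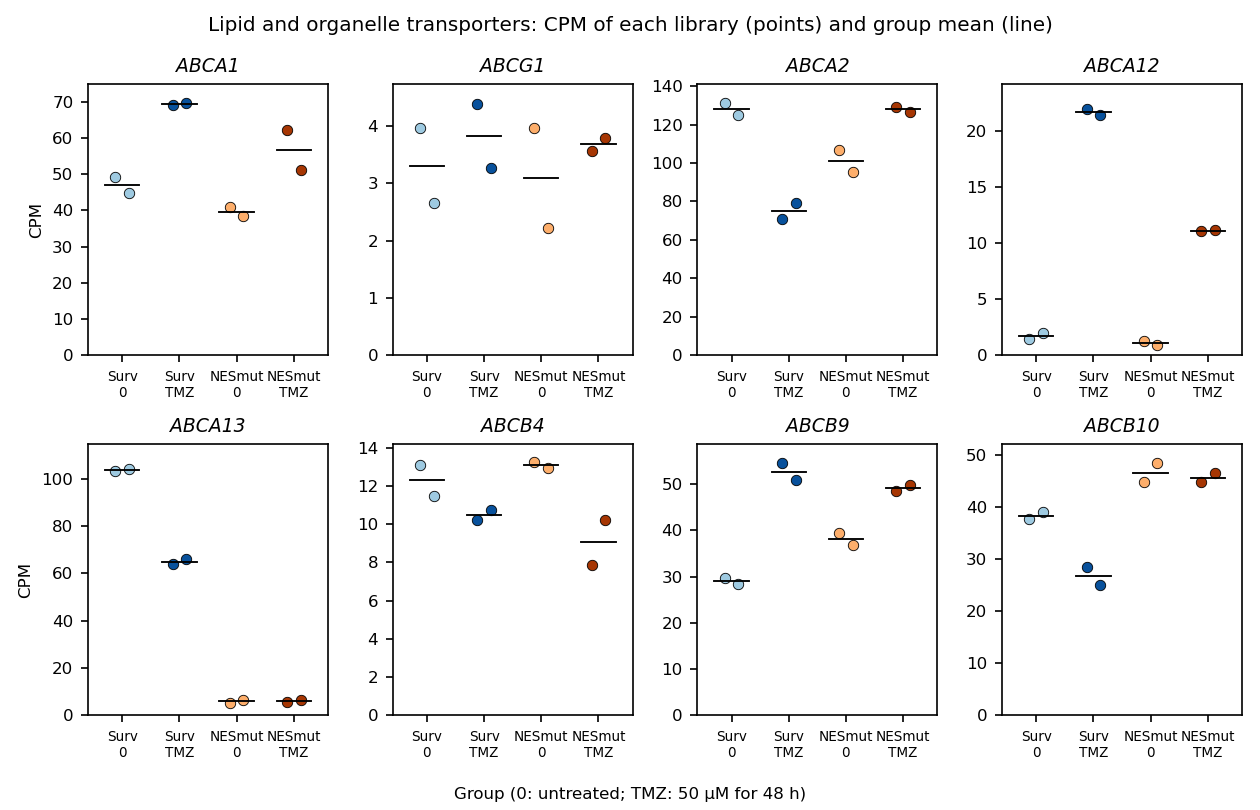
CPM of each library (points) and group mean (line) for 6 lipid and 2 organelle transporters, each on its own axis from 0, by clone without (0) and with 50 µM TMZ. ABCA12 and ABCA1 are higher after TMZ in both clones, ABCA2 drops in Surv-GFP and climbs in SurvNESmut-GFP, and ABCA13 is low in every SurvNESmut-GFP library.

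Among the 9 organelle transporters 1 rose and 4 fell in Surv-GFP (30.1% and 28.9% of all genes), and 1 rose and 1 fell in SurvNESmut-GFP (18.6% and 19.1%). ABCB9, a lysosomal peptide transporter, rose in both, from 29.8 and 28.4 CPM to 54.5 and 51.0 CPM in Surv-GFP and from 39.5 and 36.9 CPM to 48.5 and 49.9 CPM in SurvNESmut-GFP. The exposed libraries of both clones lay close together, above all untreated ones. The folds were 1.81 and 1.29 (edgeR adjusted p = 1.5e-08 and 0.00040), and the effects differed by -0.50 ± 0.10 in log2 (edgeR adjusted p = 0.00066). In the GENCODE v29 annotation the exons of ABCB9 overlap AC026362.1, ARL6IP4 and OGFOD2 on the other strand, by at most 2752 of its 7161 bases each. Without strand the reads there cannot be told apart. The count file has no gene named AC026362.1, so its reads may be counted under ABCB9. The log2 changes of OGFOD2 were 0.41 and 0.19 (edgeR adjusted p = 0.0017 and 0.13) and those of ARL6IP4 were 0.14 and 0.03 (edgeR adjusted p = 0.038 and 0.71), and their part in the ABCB9 values was not tested.

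ABCB10 of the inner mitochondrial membrane, needed for haem synthesis, went from 37.6 and 39.0 CPM to 28.5 and 25.0 CPM in Surv-GFP and from 44.7 and 48.3 CPM to 44.7 and 46.4 CPM in SurvNESmut-GFP. It fell 1.43-fold in Surv-GFP (edgeR adjusted p = 2.3e-05), and the effects differed by 0.48 ± 0.10 in log2 (edgeR adjusted p = 0.0017). The peroxisomal ABCD3 fell by 0.29 in log2 in Surv-GFP (edgeR adjusted p = 0.00021). ABCD2, an importer of very-long-chain fatty acids into peroxisomes, was rare: 17 and 13 counts became 1 and 1 in Surv-GFP, whereas SurvNESmut-GFP had 13 and 10, then 11 and 9 counts. The level in Surv-GFP was 14.8-fold lower after TMZ (95% interval 3.76 to 128, counting error only), and edgeR called this decrease (adjusted p = 1.0e-04) and the difference of the effects (adjusted p = 0.0020). ABCB6, ABCB8 and ABCD4 passed in neither clone, with log2 changes from -0.13 to 0.06.

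Of the 4 ATPases that transport nothing, ABCE1, which splits ribosomes for recycling, rose by 0.33 in Surv-GFP and by 0.18 in SurvNESmut-GFP (log2, edgeR adjusted p = 4.1e-05 and 0.010). The second call was lost without SurvNESmut-GFP TMZ replicate a (adjusted p = 0.084) or untreated replicate a (0.12). ABCF2 rose by 0.17 in SurvNESmut-GFP (edgeR adjusted p = 0.028), a call lost without TMZ replicate a (0.21), without untreated replicate b (0.27), in a fit to the 4 libraries of that clone (0.069) and with DESeq2 (0.072). ABCF1 and ABCF3 passed in neither clone.

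The second comparison set the clones side by side without and with TMZ. Without TMZ 10 members were higher in SurvNESmut-GFP and 13 lower, against 34.7% and 29.4% of all genes. With TMZ 16 were higher and 12 lower, against 34.5% and 34.7%. Of the 14 lipid transporters 1 was higher and 9 lower untreated, and 2 were higher and 8 lower with TMZ. In both conditions 5 of those lower were ABCA5, ABCA6, ABCA8, ABCA9 and ABCA10, which lie in 1 run on chromosome 17. Of the 9 organelle transporters 5 were higher and 2 lower untreated, and 6 and 2 with TMZ. Of the 8 drug efflux transporters 2 were higher and 2 lower untreated, and 5 and 2 with TMZ. Glial markers moved with the clone too: untreated, S100B was at 798 and 756 CPM in Surv-GFP and at 41.2 and 40.1 CPM in SurvNESmut-GFP, and SOX2 and OLIG2 were lower by 1.40 and 2.29 in log2, whereas NES and CD44 were higher by 0.39 and 0.19. Their part in the ABC differences was not tested.

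Among the better-counted members, ABCA13 and ABCC3 differed widely between the clones. ABCA13 was 17.7-fold lower in untreated SurvNESmut-GFP and 10.9-fold lower with TMZ (log2 -4.15 ± 0.08 and -3.44 ± 0.09, edgeR adjusted p = 1.4e-15 and 1.9e-14). ABCC3 was 7.95-fold and 9.62-fold higher (log2 2.99 ± 0.09 and 3.27 ± 0.08, edgeR adjusted p = 1e-13 and 1.6e-14). With TMZ the drug pumps ABCG2, ABCC2, ABCC4 and ABCC5 were also higher in SurvNESmut-GFP, by 1.5, 1.25, 0.93 and 0.60 in log2 (edgeR adjusted p = 3.2e-05, 0.0011, 8.2e-09 and 1.5e-06). Of these ABCC4 was higher without TMZ as well (0.48, edgeR adjusted p = 1.6e-05). ABCB1 went the other way. It was lower in SurvNESmut-GFP by 1.25 in log2 with TMZ (2.37-fold, edgeR adjusted p = 5.4e-07) and by 0.43 without (edgeR adjusted p = 0.029). The smaller difference was lost without Surv-GFP untreated replicate b (adjusted p = 0.16) or either untreated SurvNESmut-GFP library (0.11 and 0.083), and with DESeq2 (0.085). ABCC1 was lower by 0.21 and 0.25 (edgeR adjusted p = 0.0075 and 0.0017), the first lost without Surv-GFP untreated replicate a (0.076) or SurvNESmut-GFP untreated replicate b (0.12).

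In the organelle group ABCB6, ABCB8 and ABCB10 were higher in SurvNESmut-GFP in both conditions, by 0.23 to 0.39 in log2 untreated and by 0.27 to 0.76 with TMZ, and ABCD4 was lower in both (log2 -0.44 and -0.42). ABCB6, the porphyrin carrier, shares most of its exon bases with AC068946.2 on the same strand in GENCODE v29. The count file has no gene of that name either, so its reads may be counted under ABCB6. ABCB8 lost its call untreated without Surv-GFP untreated replicate a (adjusted p = 0.058) or SurvNESmut-GFP untreated replicate a (0.11) and with DESeq2 (0.053), and its call with TMZ without Surv-GFP TMZ replicate a (0.058). ABCF1 and ABCF3 were higher in both conditions, with ABCF1 at 130 and 133 CPM against 175 and 177 CPM untreated (log2 0.42, edgeR adjusted p = 1e-06). ABCF3 with TMZ (0.23, edgeR adjusted p = 0.0060) was lost without Surv-GFP TMZ replicate a (0.078) or SurvNESmut-GFP TMZ replicate a (0.17), and ABCF2 with TMZ (0.17, edgeR adjusted p = 0.012) without the same libraries (0.18 and 0.32). ABCD3 with TMZ (0.20, edgeR adjusted p = 0.0035) was lost without Surv-GFP TMZ replicate b (0.078) or SurvNESmut-GFP TMZ replicate b (0.074).

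ABCA2 changed sides between the conditions: it was lower in SurvNESmut-GFP by 0.34 in log2 without TMZ and higher by 0.77 with it (edgeR adjusted p = 0.00014 and 2e-08). ABCA7 was higher in both, by 0.77 and 1.17 (edgeR adjusted p = 2.4e-06 and 2e-08). ABCA12 was lower by 0.68 and 0.96 (edgeR adjusted p = 0.040 and 6.7e-07), the first lost without Surv-GFP untreated replicate b (0.29) or SurvNESmut-GFP untreated replicate b (0.25), and with DESeq2 (0.057). ABCA1 was lower by 0.25 and 0.29 (edgeR adjusted p = 0.015 and 0.0035), the first lost without Surv-GFP untreated replicate a (0.16) or SurvNESmut-GFP untreated replicate b (0.12). Of the untested members ABCC8, a subunit of ATP-sensitive potassium channels, had 12 and 9 counts in untreated Surv-GFP, 9 and 4 after TMZ, and 0 in all 4 SurvNESmut-GFP libraries. It was at least 6.98-fold lower in untreated SurvNESmut-GFP and at least 3.96-fold lower with TMZ, taking 3 counts over the group as the limit of a count of 0. ABCC6 had 11 and 3, then 4 and 1 counts in Surv-GFP and also 0 in SurvNESmut-GFP (at least 4.65-fold lower untreated).

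ABCA8, ABCA9, ABCA6, ABCA10 and ABCA5 lie in this order on chromosome 17, in 1 run of related lipid transporters, and all 5 were lower in SurvNESmut-GFP in both conditions. ABCA5, found in lysosomes and late endosomes, stood at 58.8 and 57.7 CPM in untreated Surv-GFP and at 64.9 and 65.6 CPM after TMZ, against 16.5 and 17.4 CPM and 17.2 and 19.6 CPM in SurvNESmut-GFP. ABCA6 stood at 55.5 and 51.2 CPM, and 36.5 and 40.4 CPM after TMZ, against 17.2 and 14.7 CPM, and 4.91 and 8.89 CPM after TMZ. For both genes every SurvNESmut-GFP library lay below every Surv-GFP library. ABCA8 had 13.4 and 13.7 CPM, then 5.99 and 7.40 CPM in Surv-GFP, against 5.15 and 4.44 CPM, then 1.11 and 2.90 CPM. ABCA9 had 3.74 and 3.75 CPM, then 0.909 and 1.43 CPM, against 0.434 and 0.222 CPM, then 0.0585 and 0.126 CPM (1 and 2 counts). ABCA10 had 1.52 and 1.16 CPM, then 1.98 and 2.12 CPM, against 0.325 and 0.667 CPM, then 0.994 and 0.819 CPM. For all 5 the clones did not overlap within a condition.

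The log2 clone differences without and with TMZ were -1.49 and -1.75 for ABCA8, -1.74 and -2.49 for ABCA6, -1.43 and -1.17 for ABCA10 and -1.78 and -1.83 for ABCA5 (edgeR adjusted p from 2.4e-12 to 0.0037). For ABCA9 the difference was -3.48 without TMZ (edgeR adjusted p = 1.5e-07), and with TMZ the level was 12.8-fold lower (95% interval 4.08 to 64.5, counting error only, edgeR adjusted p = 5.5e-05). The call of ABCA10 without TMZ was lost without SurvNESmut-GFP untreated replicate a (-0.997, adjusted p = 0.065). ABCA10 and ABCA5 share 318 bases of exon on 1 strand in GENCODE v29, so reads there cannot be assigned. Of the tested genes beside the run, WIPI1 did not pass without TMZ (-0.15, edgeR adjusted p = 0.19) and was lower with it (-1.04, edgeR adjusted p = 3.4e-08). FAM20A (-1.14 and -2.56, edgeR adjusted p = 0.091 and 0.0014) was near the lower limit of counts. MAP2K6 on the other side was lower without TMZ (-1.64, edgeR adjusted p = 5.2e-09) and higher with it (0.87, edgeR adjusted p = 0.00063). The promoter windows of 4 of the 5 genes were 32.5% to 47.3% identical in pairs when aligned with gaps. No other promoters were aligned, so whether these windows are more alike than unrelated ones was not tested. The window of ABCA6 printed above holds 2 p53 half-sites and that of ABCA9 none.

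**Figure D5:**
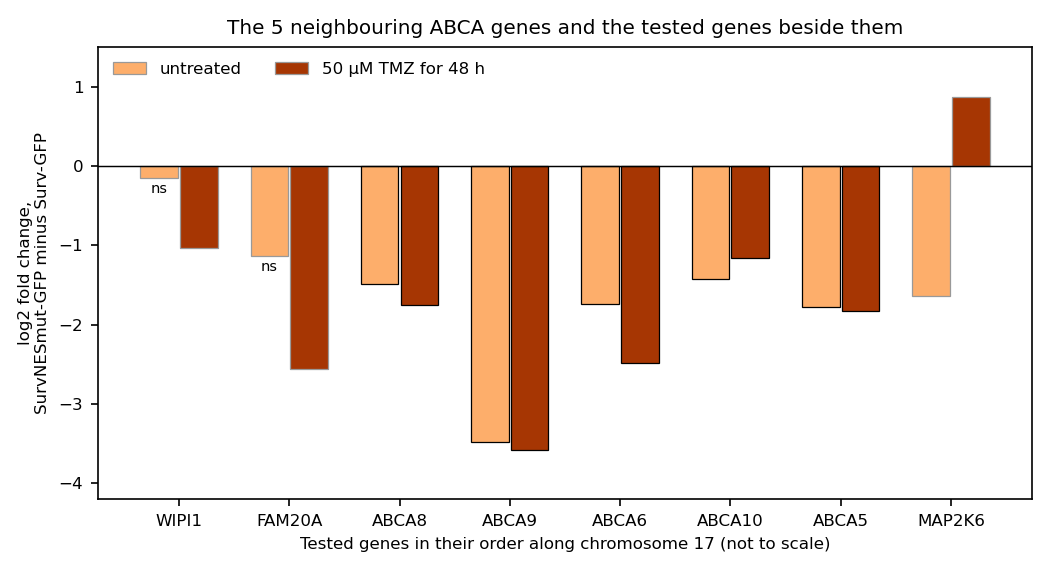
Log2 clone difference (SurvNESmut-GFP minus Surv-GFP) without and with 50 µM TMZ for ABCA8, ABCA9, ABCA6, ABCA10 and ABCA5 (black outlines) and the tested genes beside them (grey outlines), in their order along chromosome 17, with ns for an adjusted p of 0.05 or more. All 10 bars of the ABCA genes lie below -1. So do both bars of FAM20A, the untreated bar of MAP2K6 and the TMZ bar of WIPI1. The untreated bar of WIPI1 is ns and the TMZ bar of MAP2K6 is positive.

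Under TMZ 3 of the 5 genes fell in Surv-GFP. There ABCA8, ABCA9 and ABCA6 fell by 1.02, 1.68 and 0.47 in log2 (edgeR adjusted p = 0.00011, 3.2e-05 and 0.0015), and DESeq2 did not call ABCA6 (log2 -0.50, adjusted p = 0.13). ABCA5 rose by 0.16 (edgeR adjusted p = 0.032), a call lost without any 1 of the 4 Surv-GFP libraries (0.086 to 0.21) and under 5 other alternatives (0.057 to 0.21), and ABCA10 had a log2 change of 0.61 ± 0.28 (edgeR adjusted p = 0.071). In SurvNESmut-GFP ABCA8 and ABCA6 fell by 1.28 and 1.23 (edgeR adjusted p = 0.0017 and 3.8e-05). ABCA9 did not pass (12 counts against 3, 3.62-fold lower, 95% interval 0.977 to 19.99, counting error only), nor did ABCA10 (log2 0.87 ± 0.42, edgeR adjusted p = 0.12) or ABCA5 (0.11 ± 0.09, edgeR adjusted p = 0.34). The effects differed for ABCA6 (-0.75 ± 0.21, edgeR adjusted p = 0.0099), a call lost without SurvNESmut-GFP TMZ replicate a (-0.38, adjusted p = 0.074) or untreated replicate a (-0.64, 0.070), with DESeq2 (0.16) and with a robust prior (0.051).

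The genes around the family were described from lists written from general knowledge. Their counts stand beside 30.1% of all tested genes higher and 28.9% lower in Surv-GFP, and 18.6% and 19.1% in SurvNESmut-GFP. The peptide transporter of antigen presentation, whose subunits TAP1 and TAP2 are ABC proteins without an ABC symbol, rose in both clones. TAP1 changed by 0.48 and 0.45 in log2 (edgeR adjusted p = 1.9e-06 and 1.7e-05) and TAP2 by 0.17 and 0.37 (edgeR adjusted p = 0.047 and 0.00035), and CFTR, the chloride channel, was not tested. Of 15 tested genes of LXR signalling and cholesterol efflux 6 rose and 4 fell in Surv-GFP, and 1 rose and 3 fell in SurvNESmut-GFP, with the shares that fell near those of all genes. NPC1, which releases cholesterol from lysosomes, rose by 0.66 in Surv-GFP (edgeR adjusted p = 2.6e-08) and had a log2 change of -0.07 in SurvNESmut-GFP (edgeR adjusted p = 0.36). SREBF1, a driver of lipid synthesis, fell by 0.59 and 0.62, and the phospholipid transfer protein PLTP rose by 0.63 and 0.44 (edgeR adjusted p at most 0.00093).

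Of 14 regulators and companions of drug efflux 5 rose and 4 fell in Surv-GFP (30.1% and 28.9% of all genes), and 3 rose and 5 fell in SurvNESmut-GFP (18.6% and 19.1%). The hypoxia factor HIF1A went from 419 and 443 CPM to 663 and 626 CPM in Surv-GFP and from 970 and 966 CPM to 567 and 636 CPM in SurvNESmut-GFP, in opposite directions like ABCA2 but with the other signs (log2 0.58 and -0.69, edgeR adjusted p = 1.7e-07 and 7.7e-08). The xenobiotic sensor AHR rose by 0.42 and 0.16 (edgeR adjusted p = 3.1e-06 and 0.032). EZR and RDX, which anchor membrane proteins to actin, had log2 changes of 0.46 and -0.09 in Surv-GFP (edgeR adjusted p = 3.6e-06 and 0.12) and of 0.14 and -0.40 in SurvNESmut-GFP (edgeR adjusted p = 0.064 and 8.9e-06). Of 14 partners of the organelle transporters 1 rose and 7 fell in Surv-GFP (30.1% and 28.9% of all genes), and 2 rose and 2 fell in SurvNESmut-GFP (18.6% and 19.1%). The iron-sulphur scaffold ISCU rose by 0.93 and 0.27, the cobalamin transporter LMBRD1 fell by 0.60 and 0.59, and the glutaredoxin GLRX5 and the thiolase ACAA1 fell by 0.40 and 0.35 in Surv-GFP (edgeR adjusted p at most 0.0054). Of 12 translation partners of ABCE1 and the ABCF proteins 6 rose and 2 fell in Surv-GFP (30.1% and 28.9% of all genes), and 5 rose and 2 fell in SurvNESmut-GFP (18.6% and 19.1%). EIF2S2 and ZNF598 rose in both clones, by 0.87 and 0.85 in Surv-GFP and by 0.49 and 0.66 in SurvNESmut-GFP (edgeR adjusted p at most 6.4e-06). EIF2S1 rose by 0.36 and 0.14 (edgeR adjusted p = 1.8e-05 and 0.044), and the ribosome rescue factor PELO rose in Surv-GFP alone (0.68, edgeR adjusted p = 4.9e-07, against 0.08 in SurvNESmut-GFP, edgeR adjusted p = 0.44, difference -0.60, edgeR adjusted p = 0.00033).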

How the data were processed

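The authors sequenced the RNA of 8 libraries (Illumina), and libraries were grouped by the clone, exposure and replicate letter in their labels. The deposited counts are whole-number reads per gene symbol, not normalized, made by the authors before deposit. The submitters' processing notes name STAR 2.5.0b, Cufflinks 2.2.1 and edgeR, and neither the counting program nor the annotation, strand setting or genome build is stated there or in the methods. Rows without a gene (unassigned and ambiguous reads, 11.2% to 14.3% and 1.19% to 1.28% of a library) were left out. The authors' 5 comparison tables (log2 fold change, average log2 CPM, F, p and FDR) were not used.

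The tests ran in edgeR 4.0.16 (R 4.3.3): TMM scaling, filterByExpr by group against low counts, 1 model of the 4 group means over all 8 libraries and the quasi-likelihood F test in its legacy form, with p-values adjusted by Benjamini-Hochberg over 14201 genes. SE values are the log2 fold change divided by the square root of F. The 5 comparisons share libraries, so each is given with its own values. The members and the gene lists were chosen with earlier results of these data known. Values per library were given for members with an adjusted p under 0.05 and a log2 fold change of at least 0.5 in a TMZ effect or in the difference, or of at least 1 between clones, and for ABCB1, ABCC1, ABCG2, ABCA1 and ABCG1 in any case, and for at most 4 genes of each other list, those with the smallest p. Exon lengths came from GENCODE v29 and serve only for levels per kb. Alternatives were DESeq2 1.42.0 and its size factors, library size alone, other filters, edgeR's newer method, a robust prior, a replicate block, the 4 libraries compared and leaving out each library. The fits were tested on simulated data. Some genes entered every fit and count and are not reported here by name. Intervals and limits for counts of 0 cover counting error only. Replicates correlated at 0.9958 across genes in exposed SurvNESmut-GFP and at 0.9973 to 0.9976 in the other groups.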

Additional observations from a re-analysis of the deposited data

Results flagged for a closer look

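The TMZ effect differed between the clones in 12 of the 35 tested ABC genes, by the test of the difference itself (SurvNESmut-GFP minus Surv-GFP, edgeR quasi-likelihood test, Benjamini-Hochberg adjusted p under 0.05). It was larger in 9 and smaller in 3, beside 16.6% and 20.2% of all tested genes, so the number called does not set the family apart. In log2 the effect was larger in SurvNESmut-GFP by 3.67 for ABCD2, 1.11 for ABCA2, 1.08 for ABCG2, 1.04 for ABCC2, 0.71 for ABCA13, 0.65 for ABCC5, 0.48 for ABCB10, 0.46 for ABCC4 and 0.40 for ABCA7. It was smaller for ABCB1 (-0.82), ABCA6 (-0.75) and ABCB9 (-0.50). ABCA2, ABCC5, ABCA13, ABCB10, ABCC4, ABCB1 and ABCB9 kept this call under all 16 alternatives run for it and ABCD2 under the 14 that gave it a value, whereas ABCG2, ABCC2, ABCA7 and ABCA6 each lost it without at least 1 single library. The value of ABCD2 rests on 2 counts in the exposed Surv-GFP libraries. No group held more than 2 libraries, so which library of a pair stands apart was not tested. The exposed SurvNESmut-GFP pair differed the most (chi-square per degree of freedom 5.49 against 2.14 to 2.58 in the other groups).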

How the results depend on the processing

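Of 98 calls over members and comparisons 71 were kept under every alternative that gave a value (14 to 17 each), 27 were lost under at least 1 and none changed direction. DESeq2 lost 17 calls, more than any other setting, and leaving out 1 library lost 4 to 11. With a replicate block 1 call was lost and 1 gained, and the counts of members higher and lower were 9 and 14 (TMZ, Surv-GFP), 9 and 4 (TMZ, SurvNESmut-GFP), 8 and 3 for the difference, 10 and 13 between untreated clones and 16 and 12 between exposed clones. Deviations of libraries with the same letter correlated at 0.08 and 0.16 between groups of the same exposure. Between groups of unlike exposure the correlations ran from -0.21 to -0.07. Whether the letters mark a shared batch was not tested. The count of larger effects in SurvNESmut-GFP was 9, and 5 with DESeq2. That of smaller effects was 3, and 2 to 5 when a library was left out, with 5 without SurvNESmut-GFP TMZ replicate b. Among values that did not pass the test, signs changed with 1 library left out. The range over these fits was -0.087 to 0.024 for the log2 TMZ effect of ABCB10 in SurvNESmut-GFP (0.0057 with library size alone), -0.22 to 0.12 for ABCD2, -0.050 to 0.087 for ABCC1, -0.11 to 0.18 for ABCA13 and -0.11 to 0.72 for ABCG1 in the same clone, and -0.039 to 0.54 for ABCG1 in Surv-GFP. For the difference of the effects it was -0.34 to 0.51 for ABCG4, -1.09 to 0.29 for ABCA8, -0.12 to 0.053 for ABCC10 (0.026 with library size alone and 0.016 with a filter of 1 CPM in 2 libraries) and -0.19 to 0.093 for ABCA1 (0.016 and 0.0064 under the same settings). The cause of these changes was not tested. Members under about 40 counts a library, such as ABCC2, ABCG4, ABCA10 and ABCD2, are limited by depth, and 11 members could not be tested.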
